A study of Mus musculus with 6 samples.

Results

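The genes described here are 38 listed names from glycolysis and the response to low oxygen: the enzymes that turn glucose into lactate, the kinases and bifunctional enzymes that steer that flow, the subunits and regulators of hypoxia-inducible factor (HIF), and a set of genes that HIF is known to induce. Members were chosen by name, as the rows of the count table whose symbol equals a listed name. Of the 38 names, 37 were found. The vasodilator peptide gene Adm is not listed in the table. Aldoa is listed on 2 identifiers, so that the 37 names give 38 entries of the 14831 genes in the table, and all 38 passed the filter on low counts and were tested among 14289 genes.

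Glycolysis splits glucose into pyruvate in the cytosol, and lactate dehydrogenase turns pyruvate into lactate, which lets the pathway run without oxygen. HIF is a transcription factor made of an oxygen-sensitive alpha subunit and the stable partner ARNT. In the presence of oxygen, prolyl hydroxylases of the EGLN family mark the alpha subunit for degradation by the VHL complex, so HIF activity is set mainly at the protein level, and many glycolytic genes are among its targets. Fibroblasts of pancreatic tumours live in a poorly perfused, hypoxic stroma.

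RNAseq was performed on immortalized mouse pancreatic fibroblasts, 3 libraries labelled WT and 3 labelled Gli2-/-;Gli3-/- (here labelled KO), all of mixed strain. According to the methods of the study, such lines were grown out of the pancreas of adult Gli floxed mice, immortalized, infected with adenovirus carrying eGFP, together with a dsRed lentivirus for controls or a Cre adenovirus for knockouts, and sorted by flow cytometry, so that the lines of both groups carried the floxed alleles before infection. Each library came from its own well of cells grown to confluence in DMEM with calf serum. The wells of a group are not shown to be independently made lines. The p-values are therefore taken to measure the spread between wells, and a line and its genotype cannot be told apart. The labels name no oxygen level and no hypoxic treatment.

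Gli2 and Gli3 check these labels, and both went against them. Gli2 had 27.1 ± 1.19 CPM (counts scaled by library size; SD, n = 3) with the WT label and 56.2 ± 1.96 CPM with the KO label, and Gli3 had 12.5 ± 0.0440 and 40.8 ± 1.64 CPM. Gene-level counts also take in exons outside a floxed segment. No reads per exon were examined, and the reason why both genes were higher with the KO label was not tested. Every direction below is that of libraries labelled KO relative to libraries labelled WT, and rests on labels that these genes contradict. The libraries held 31728420 to 41035931 counts on genes, of which the members took between 0.514% and 0.553%. Of 10 fibroblast markers, 8 are in the table, with a summed level of 42155 to 44722 CPM with the WT label and 35894 to 37635 CPM with the KO label. Col1a1, Col1a2, Col3a1 and Vim carry nearly all of that sum, and the 8 markers did not move as one. Col3a1, Pdgfra and Pdgfrb fell by 0.94, 0.90 and 0.66 on the log2 scale and S100a4 rose by 1.67 (adjusted p = 1.03e-10, 2.01e-10, 8.75e-10 and 6.53e-08, edgeR), while Thy1 was near absent, with 4, 1 and 0 reads against 19, 15 and 9. Pdpn and Fap are not listed. Of other cell types, 4 of 9 epithelial markers (Cdh1, Cela1, Krt8 and Sox9; Epcam, Krt18 and Krt19 are not listed) summed to 16.3 to 17.8 CPM and 21 to 22.1 CPM, 3 of 6 macrophage markers to 39.5 to 45.5 CPM and 38.4 to 40.1 CPM, and 0 of 4 endothelial markers are listed. Within these sums, Cdh1 and Cela1 rose by 1.08 and 0.87 on the log2 scale and Sox9 fell by 0.50 (adjusted p = 0.00450, 1.13e-06 and 1.73e-04, edgeR). Cdh1 had 10, 14 and 9 reads against 28, 33 and 19, and passed the filter on low counts only through the libraries labelled KO. Krt8 had 1, 0 and 2 reads against 7, 9 and 12, and Lyz2 carried nearly all of the macrophage sum. The part of these cell types in the results below was not tested, and in bulk RNA fewer cells of a type and less RNA per cell cannot be told apart.

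Sequence upstream of the members was searched for the letters that HIF is known to bind, as a description of these genes. HIF binds the core letters ACGTG or GCGTG, which were searched on both strands of the RefSeq promoters (GRCm38.p6, 250 bases before to 50 after each start), with overlapping matches counted separately, so that CACGTG counts on each strand. Of the 37 member names, 33 have a promoter in the RefSeq table, and 29 of the 33 (87.9%) held at least 1 match in at least 1 promoter, against 67.9% of 9996 tested genes and 46.7% of all 27025 genes with a promoter. Counted per window, 43.8% of all 32851 promoters held a match. This share is not comparable with those per gene, since a gene with several promoters counts if any of them holds a match. Matches were found in 12 of 12 members that were higher in the libraries labelled KO, in 12 of 13 that were lower and in 5 of 8 that did not pass the test. A match is a run of letters, and no match says only that these letters are not in this window.

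The sequences below are printed 5′ to 3′ on the strand of the gene, with matches in capitals, because these members carry the results or differ most in matches. For Car9 and Ankrd37 only the 30 bases around the match nearest the start are given. Car9 lies on chromosome 4 (chr4:43506995-43507024, plus strand) with its single match 18 bases before the RefSeq start, and the Ankrd37 site (chr8:45999851-45999880, minus strand) starts 6 bases before it. The stretches of Ldhb (chr6:142507958-142508107, minus strand), Ldha (chr7:46845654-46845803, plus strand, the first of its 2 promoters), Pgk1 (chrX:106186950-106187099, plus strand), Bnip3 (chr7:138909520-138909656, minus strand) and Eno2 (chr6:124769674-124769823, minus strand) lie outside all exons of GENCODE M21. That of Ldha lies inside the annotated gene, between exons and downstream of its earliest annotated start, while the Car9 and Ankrd37 sites reach into annotated first exons of these genes. Ldha holds 5 matches in the stretch shown, of which 4 are a pair of CACGTG palindromes, Bnip3 holds 5, Pgk1 2, Ldhb 1 and Eno2 none.
Car9: cctatttccgatgCACGTacagcccgtcca
Ankrd37: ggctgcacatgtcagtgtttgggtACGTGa
Ldhb: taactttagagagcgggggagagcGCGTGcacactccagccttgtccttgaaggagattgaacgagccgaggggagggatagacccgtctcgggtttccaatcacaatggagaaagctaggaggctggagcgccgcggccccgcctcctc
Ldha: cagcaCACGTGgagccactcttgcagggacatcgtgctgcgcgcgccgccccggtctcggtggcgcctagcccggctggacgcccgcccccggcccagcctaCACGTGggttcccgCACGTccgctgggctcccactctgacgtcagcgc
Pgk1: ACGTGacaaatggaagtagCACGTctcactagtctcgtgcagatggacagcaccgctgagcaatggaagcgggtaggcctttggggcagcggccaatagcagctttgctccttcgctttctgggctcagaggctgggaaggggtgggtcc
Bnip3: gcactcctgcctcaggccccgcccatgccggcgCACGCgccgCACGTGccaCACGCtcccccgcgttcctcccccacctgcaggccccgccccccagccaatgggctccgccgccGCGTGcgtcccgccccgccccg
Eno2: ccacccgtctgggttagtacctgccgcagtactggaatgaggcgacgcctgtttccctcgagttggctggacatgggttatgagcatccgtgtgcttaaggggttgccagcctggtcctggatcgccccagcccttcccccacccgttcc

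Most genes of glycolysis and hypoxia moved by small amounts, in both directions. At an adjusted p under 0.05 (edgeR quasi-likelihood test, Benjamini-Hochberg over all genes tested), 29 of the 38 entries were called, or 76.3%, where 58.7% of all tested genes were. Of these 15 were higher in the libraries labelled KO (29.9% of all tested genes were) and 14 were lower (28.8% of all tested genes were). The members are deeply counted, with a median of 1579 reads per library against 783 for all tested genes. CPM values of the groups did not overlap for 29 entries, 14 higher and 15 lower, where 64.2% of all tested genes did not overlap. With a change of at least 1.5-fold asked for as well, 7 entries were called, or 18.4%, near the 17.7% of all tested genes: 5 were higher (11.6% of all tested genes) and 2 were lower (6.1%). The median log2 fold change was -0.02 over the members and 0.00 over all tested genes, and its median size was 0.24 and 0.22. The other 31 entries stayed under 1.5-fold.

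**Figure D1:**
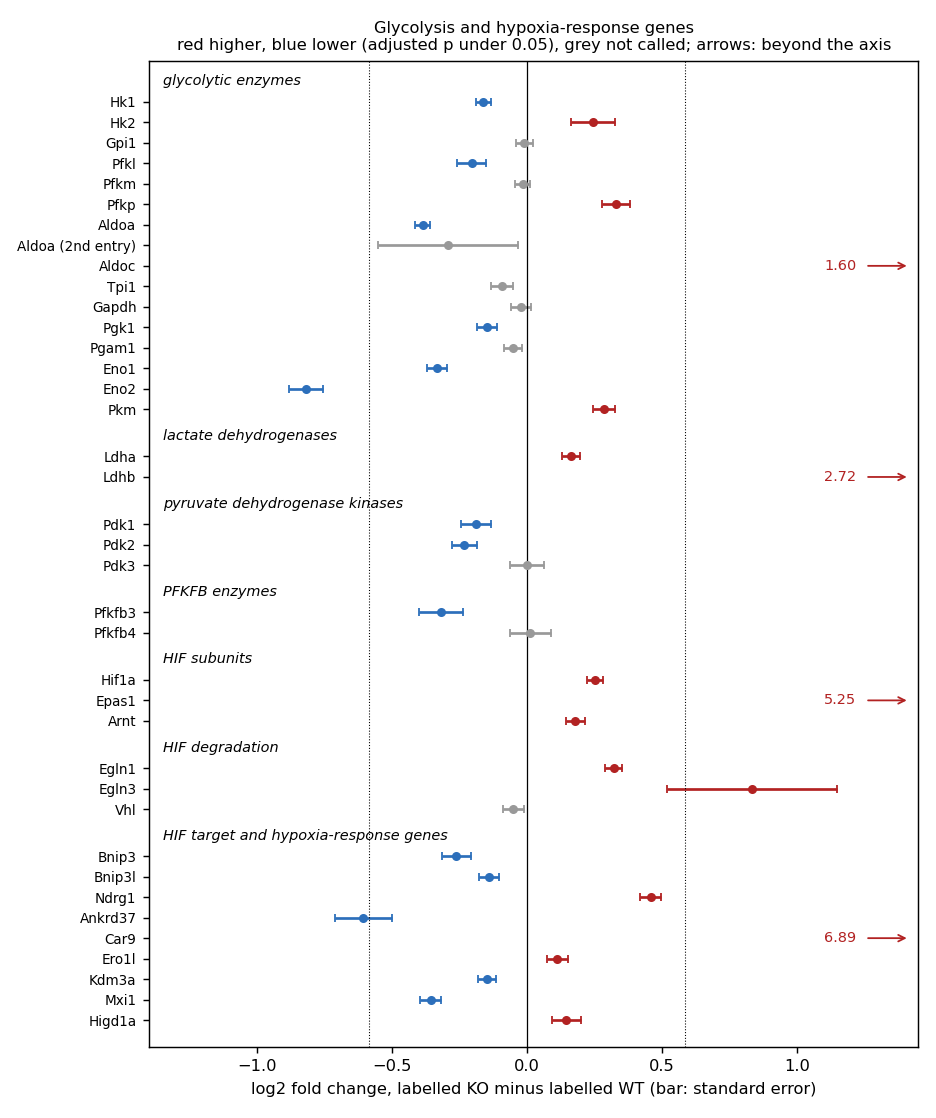
Log2 fold change of each of the 38 entries (horizontal axis, labelled KO minus labelled WT) with its standard error as a bar, grouped by role; dotted lines mark 1.5-fold. Car9, Epas1, Ldhb and Aldoc lie beyond the axis, at 6.89, 5.25, 2.72 and 1.60, while most other entries lie between the dotted lines on either side of 0.

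The 7 entries past 1.5-fold were Car9, Epas1, Ldhb, Aldoc and Egln3, all higher in the libraries labelled KO and all low in read number, and Eno2 and Ankrd37, both lower. Of these, Car9, Epas1, Aldoc and Egln3 passed the filter on low counts only through the libraries labelled KO, the group where they are high. Their p-values and the number of higher entries are therefore not independent of that filter. Car9 (chromosome 4 from 43506966 to 43513729, positions being those of GENCODE M21, GRCm38), the membrane carbonic anhydrase that is a classical marker of hypoxic cells, had 0, 1 and 0 reads with the WT label and 54, 67 and 61 with the KO label. Summed over each group and scaled by depth, this is a ratio of 160 with a 95% interval of 28.3 to 6352, which covers counting error only. Its fitted log2 fold change was 6.89 (standard error, SE, 0.47 and adjusted p = 7.06e-08 by edgeR) and 8.85 without labelled WT replicate 2, which holds the only read of that group. Even in the libraries labelled KO the level stayed at 1.66 ± 0.168 CPM. The antisense gene Gm12454 shares 214 exonic bases with Car9 and had 20, 10 and 17 reads with the WT label and 3, 12 and 8 with the KO label.

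Epas1 (chromosome 17 from 86753700 to 86833410), which codes for the alpha subunit HIF2A, had 2, 4 and 1 reads with the WT label and 102, 106 and 108 with the KO label. The groups were far apart, with a summed ratio of 39.7 (95% interval 19.0 to 99.5, counting error only) and a log2 fold change of 5.25 (SE 0.31, adjusted p = 1.59e-08, edgeR). Its level in the libraries labelled KO was 2.90 ± 0.364 CPM. Car9 and Epas1 were thus near the detection floor of 3 reads, or 0.0720 to 0.0957 CPM per library, in one group and low in the other.

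Ldhb (chromosome 6 from 142490249 to 142507957), the lactate dehydrogenase subunit typical of heart, had 30, 18 and 21 reads with the WT label and 193, 174 and 152 with the KO label. That is 0.718 ± 0.216 and 4.74 ± 0.649 CPM (SD, n = 3 each), a 6.60-fold rise (log2 fold change 2.72, SE 0.19, adjusted p = 9.35e-08, edgeR). A near-identical processed pseudogene, Gm5514, held 8, 8 and 6 reads and 17, 8 and 11 reads, so that reads may have been divided between them. Aldoc (chromosome 11 from 78322968 to 78327781), the aldolase typical of brain, had 9, 9 and 14 reads against 36, 31 and 44. It rose 3.04-fold (log2 fold change 1.60, SE 0.31, adjusted p = 6.35e-04, edgeR) to 1.03 ± 0.295 CPM.

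Egln3 (chromosome 12 from 54178981 to 54203860), a prolyl hydroxylase that HIF itself induces, had 8, 8 and 7 reads with the WT label and 13, 21 and 13 with the KO label. The groups did not overlap, with 0.238 ± 0.0180 and 0.422 ± 0.0725 CPM, but the call was narrow (log2 fold change 0.83, SE 0.31, adjusted p = 0.0367, edgeR). It was lost with DESeq2 (adjusted p = 0.199) and on leaving out labelled WT replicate 1, 2 or 3 (0.0634, 0.0867 and 0.106) or labelled KO replicate 2 or 3 (0.158 and 0.0544).

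Eno2 (chromosome 6 from 124760053 to 124769673), the enolase typical of neurons and a known HIF target, was the member that fell most. It had 492, 541 and 487 reads with the WT label and 306, 372 and 302 with the KO label. Its level fell 1.76-fold, from 15.7 ± 0.449 to 8.91 ± 0.254 CPM (log2 fold change -0.82, SE 0.06, adjusted p = 1.76e-07, edgeR). Ankrd37 (chromosome 8 from 45996902 to 46005707), a small ankyrin-repeat gene among the hypoxia-induced genes, had 176, 179 and 153 reads and 123, 134 and 122. It fell 1.52-fold, from 5.25 ± 0.419 to 3.46 ± 0.240 CPM (log2 fold change -0.61, SE 0.11, adjusted p = 3.04e-04, edgeR), just past the limit, and its log2 fold change was -0.56 without labelled WT replicate 1 and -0.55 without labelled KO replicate 2, short of it. Ankrd37 shares 57 exonic bases with Ufsp2 on the opposite strand, which had 1135, 1213 and 1075 reads against 1335, 1565 and 1204.

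**Figure D2:**
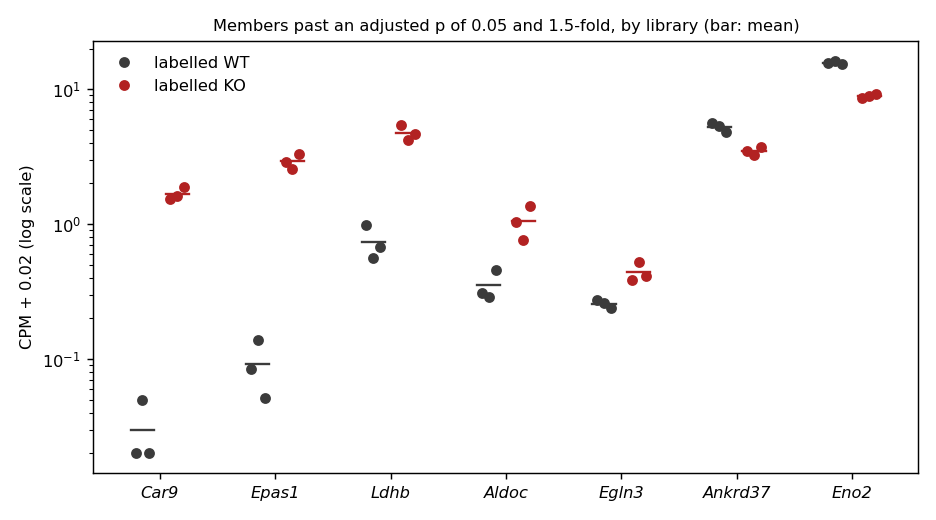
CPM plus a pseudocount of 0.02 (vertical log axis) of the 7 entries past an adjusted p of 0.05 and 1.5-fold in each library, dark points for labelled WT and red for labelled KO, with the mean as a bar. The groups of 3 do not overlap for any of the 7, and the gap narrows from Car9 and Epas1 to Egln3.

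Among the enzymes from glucose to pyruvate, 16 entries, 4 were higher, 6 were lower and 6 did not pass the test. The 62.5% called lies near the 58.7% of all tested genes. Hexokinase traps glucose in the cell as its phosphate. Hk1, the ubiquitous form, had 261, 251 and 255 CPM with the WT label and 230, 230 and 227 CPM with the KO label, and fell by 0.16 on the log2 scale (SE 0.03, adjusted p = 3.23e-04, edgeR). Hk2, the insulin- and hypoxia-responsive form, was much lower, at 26.9, 21.6 and 20.6 CPM against 28.5, 25.9 and 27.4 CPM. The Hk2 groups overlapped: the log2 fold change of 0.24 passed the test (adjusted p = 0.0217, edgeR) but not without labelled WT replicate 2 (0.107), labelled WT replicate 3 (0.0906) or labelled KO replicate 1 (0.0785).

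Glucose phosphate isomerase, Gpi1, had 264 ± 6.55 and 262 ± 6.22 CPM, a log2 change of -0.01 (SE 0.03, adjusted p = 0.796, edgeR). Phosphofructokinase commits the sugar to glycolysis. Its predominant gene here, Pfkm, the muscle form, had 160, 159 and 158 CPM and 159, 157 and 155 CPM, with a log2 change of -0.02 (SE 0.03) that did not pass (adjusted p = 0.643, edgeR). The liver form Pfkl fell from 70.3 ± 5.52 to 61.0 ± 2.92 CPM (log2 fold change -0.20, adjusted p = 0.00541, edgeR) while the platelet form Pfkp rose from 36.0 ± 1.14 to 45.2 ± 3.11 CPM (0.33, adjusted p = 1.29e-04). Pfkp shares 748 exonic bases with Pitrm1 on the opposite strand, which holds more reads than Pfkp does.

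Aldolase splits the sugar. Aldoa on its main identifier (chromosome 7 from 126795234 to 126800751) had 522, 521 and 504 CPM with the WT label and 403, 392 and 387 CPM with the KO label. Every library labelled KO lay well below the others, and Aldoa fell by 0.39 on the log2 scale (SE 0.03, adjusted p = 1.79e-07, edgeR), a drop by 23.5%. The neighbouring second Aldoa entry (from 126800790 to 126809108) had 17 to 29 reads per library, a log2 change of -0.29 (SE 0.26) and an adjusted p of 0.351 (edgeR).

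Triosephosphate isomerase, Tpi1, had 316, 296 and 285 CPM and 289, 279 and 273 CPM, which overlap. Its log2 change of -0.09 (SE 0.04) missed the threshold (adjusted p = 0.0594, edgeR) and passed it without labelled WT replicate 3 (0.0137) or labelled KO replicate 1 (0.0342). Gapdh, often used as a reference gene, had 936, 921 and 859 CPM and 907, 906 and 862 CPM, a log2 change of -0.02 (SE 0.04, adjusted p = 0.624, edgeR). Gapdh has 74 near-identical gene copies in the annotation, of which Gm13394 is in the table with 8.28% as many reads, so its reads are uncertain. The sign of Gpi1, Pfkm and Gapdh turned positive under upper-quartile and total-count scaling.

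Phosphoglycerate kinase, Pgk1, which makes the first ATP of the pathway, fell from 142 ± 5.41 to 128 ± 3.77 CPM (log2 fold change -0.15, SE 0.04, adjusted p = 0.00334, edgeR). Phosphoglycerate mutase, Pgam1, had 108 ± 3.0 and 104 ± 2.45 CPM (log2 fold change -0.05, SE 0.03, adjusted p = 0.212, edgeR), and its sign turned under upper-quartile scaling. The ubiquitous enolase, Eno1, had 472, 440 and 426 CPM with the WT label and 358, 354 and 348 CPM with the KO label. Eno1 thus fell with Eno2, by 0.34 on the log2 scale (SE 0.04, adjusted p = 6.07e-06, edgeR).

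Pyruvate kinase, Pkm, makes pyruvate and the last ATP, and was the most abundant member in CPM. It had 1012, 934 and 912 CPM with the WT label and 1205, 1149 and 1126 CPM with the KO label. The groups did not overlap, and Pkm rose by 21.8% (log2 fold change 0.28, SE 0.04, adjusted p = 5.15e-05, edgeR). Gene counts do not separate its PKM1 and PKM2 splice forms. Pkm overlaps Gm49759 by 767 exonic bases on the same strand, with 1009, 1019 and 1043 reads there against 1399, 1710 and 1398. Lactate dehydrogenase A, Ldha, the form that favours lactate, had 261, 252 and 245 CPM and 287, 285 and 278 CPM, a rise of 11.9% (log2 fold change 0.16, SE 0.03, adjusted p = 7.37e-04, edgeR).

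To compare genes with each other, reads were also divided by exon length (RPKM, which scales for depth and length) and summed over the member genes of each of 11 steps. In 4 steps the summed level was lower in each library labelled KO, in 2 it was higher, and in 5 the groups overlapped. The groups also did not overlap for 64.2% of all tested genes taken singly, so this count is not a trait of these steps. Aldolase fell from 177 ± 3.31 to 136 ± 2.68 RPKM (-23.4%), enolase from 86.2 ± 4.42 to 67.6 ± 0.894 RPKM (-21.6%), phosphoglycerate kinase from 63.1 ± 2.41 to 56.9 ± 1.68 RPKM (-9.85%) and hexokinase from 33.9 ± 1.12 to 31.4 ± 0.303 RPKM (-7.32%). The steps that make and use pyruvate lay higher, pyruvate kinase at 191 ± 10.5 and 232 ± 8.16 RPKM (21.8%) and lactate dehydrogenase at 76.8 ± 2.66 and 88.5 ± 1.61 RPKM (15.2%). The smallest two-sided p that an exact permutation test over 3 and 3 libraries allows for such a sum is 0.1. The enolase sum leaves out Eno3, which is not a member. With Eno3 added, a choice made after seeing the data, it went from 178 ± 7.65 to 117 ± 2.49 RPKM (-34.1%).

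**Figure D3:**
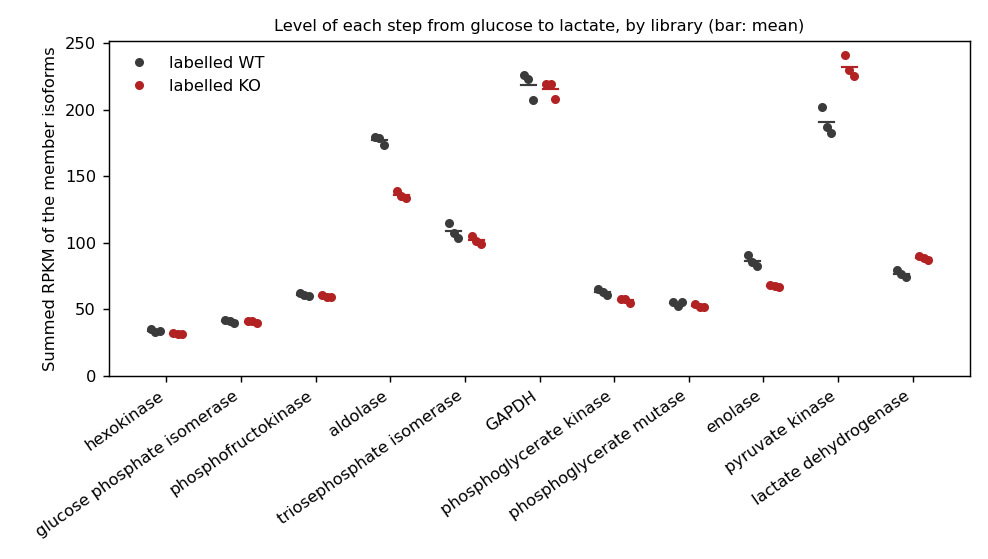
Summed RPKM of the member genes of each step from glucose to lactate (vertical axis from 0) in each library, dark points for labelled WT and red for labelled KO, with the mean as a bar. Aldolase and enolase lie lower in the libraries labelled KO, pyruvate kinase and lactate dehydrogenase higher, and the points of the other steps lie close together.

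Most of these sums are set by 1 gene of each family, so the isoform shares show changes that the sums do not. Ldhb made up 0.766%, 0.447% and 0.564% of the lactate dehydrogenase RPKM with the WT label and 3.85%, 3.0% and 3.38% with the KO label, and Ldha the rest. Epas1 made up 0.0738 ± 0.0459% of the sum of Hif1a and Epas1 with the WT label and 2.45 ± 0.315% with the KO label. Both minor isoforms therefore remained a small part of their family despite their large fold changes.

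Aldoc went from 0.0575 ± 0.0174% to 0.233 ± 0.0689% of aldolase, Egln3 from 0.395 ± 0.0306% to 0.560 ± 0.0984% of the EGLN pair, Hk2 from 11.4 ± 1.29% to 14.6 ± 0.613% of hexokinase and Pfkp from 4.42 ± 0.215% to 5.67 ± 0.462% of phosphofructokinase. Eno2 moved the other way, from 3.88 ± 0.188% to 2.80 ± 0.117% of the pair of enolases. In each of these the groups of 3 did not overlap, and the exact two-sided permutation p was 0.1, the smallest it can be with 3 against 3. Of the 22 shares in 10 families, 18 reached that p, where the shares of one family are not independent of each other. Pdk1, Pdk2, Bnip3 and Bnip3l did not (exact permutation p = 0.5, 0.2, 0.3 and 0.3). An exact permutation p of 0.1 means here only that the groups did not overlap. The CPM values of 64.2% of all tested genes, taken singly, did not overlap either, so the count of 18 is not a trait of these families.

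**Figure D4:**
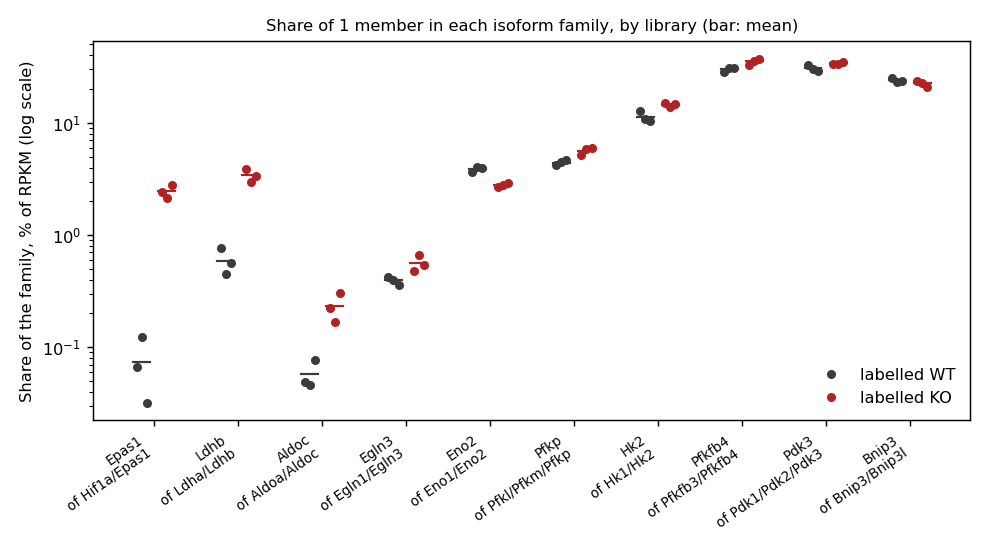
Share of 1 gene in the RPKM of its isoform family (percent, vertical log axis) in each library, dark points for labelled WT and red for labelled KO, with the mean as a bar. The shares of Epas1 and Ldhb rise from under 1% to between 2.14% and 3.85%, and Bnip3 overlaps between the groups.

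The genes that steer glycolytic flow were lower or close to level. Pyruvate dehydrogenase kinases keep pyruvate out of the mitochondria by switching off pyruvate dehydrogenase, and Pdk1 is a HIF target. Pdk2 had 28.6, 29.8 and 31.1 CPM with the WT label and 26.0, 25.1 and 25.1 CPM with the KO label, a log2 change of -0.23 (SE 0.05, adjusted p = 8.39e-04, edgeR). Pdk1 fell from 24.5 ± 0.579 to 21.4 ± 1.43 CPM (log2 fold change -0.19, adjusted p = 0.0101, edgeR), and the call was lost under upper-quartile scaling (0.0550). Pdk3 stood at 14.3 ± 0.917 and 14.3 ± 0.261 CPM (adjusted p = 0.995, edgeR). The PFKFB enzymes make and break the sugar bisphosphate that activates phosphofructokinase. Pfkfb3, the strongly kinase-biased form, had 30.3, 26.1 and 27.8 CPM and 25.6, 21.7 and 20.2 CPM, and fell by 0.32 on the log2 scale (SE 0.08, adjusted p = 0.00409, edgeR). Pfkfb4 had 7.79 ± 0.249 and 7.86 ± 0.273 CPM (adjusted p = 0.898).

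All 3 HIF subunit genes were higher in the libraries labelled KO, where 29.9% of all tested genes were. A set of 3 genes is small, and Epas1 passed the filter on low counts only through those libraries. Hif1a, the main alpha subunit by level, had 101, 102 and 104 CPM with the WT label and 121, 123 and 121 CPM with the KO label. The libraries of each group lay close together, and Hif1a rose by 19.2% (log2 fold change 0.25, SE 0.03, adjusted p = 1.11e-05, edgeR). Arnt, the stable partner, rose from 90.9 ± 2.41 to 103 ± 2.91 CPM (log2 fold change 0.18, adjusted p = 6.54e-04, edgeR). These are RNA levels, and the oxygen-dependent control of HIF acts on the protein.

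Of the genes that remove the alpha subunit, Egln1, the main oxygen-sensing prolyl hydroxylase, had 81.4, 80.1 and 81.6 CPM with the WT label and 104, 101 and 98.6 CPM with the KO label. That is a rise of 24.9% (log2 fold change 0.32, SE 0.03, adjusted p = 2.68e-06, edgeR), and Egln3 rose as given above. Vhl, the recognition subunit of the ubiquitin ligase, had 40.6 ± 0.923 and 39.1 ± 0.681 CPM. Its groups did not overlap, but the log2 change of -0.05 (SE 0.04) did not pass the test (adjusted p = 0.269, edgeR).

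The 9 HIF target and hypoxia-response genes found were all called, where 58.7% of all tested genes were. Of them 4 were higher and 5 lower (29.9% and 28.8% of all tested genes), so the group had no common direction. Ndrg1, a gene strongly induced by hypoxia and metals, had 106, 117 and 109 CPM with the WT label and 154, 148 and 153 CPM with the KO label. After Car9 it rose most in this group, by 37.3% (log2 fold change 0.46, SE 0.04, adjusted p = 4.07e-07, edgeR). Ero1l, an oxidase of the endoplasmic reticulum, rose from 47.1 ± 1.57 to 51.0 ± 1.02 CPM (adjusted p = 0.0239) and Higd1a, a mitochondrial protein, from 20.5 ± 1.12 to 22.7 ± 0.578 CPM (adjusted p = 0.0328, edgeR). Both calls were narrow: with DESeq2 the adjusted p was 0.0775 for Ero1l and 0.0990 for Higd1a. Leaving out labelled WT replicate 1 or 3 or labelled KO replicate 1 ended the Ero1l call (0.0763, 0.0800 and 0.0915), and leaving out labelled WT replicate 2 or 3 or labelled KO replicate 1 or 2 that of Higd1a (0.154, 0.0646, 0.0561 and 0.130).

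Among those that fell, Mxi1, an antagonist of MYC, went from 49.2, 47.8 and 47.1 CPM to 38.5, 37.2 and 36.8 CPM. Its groups were well separated, with a log2 change of -0.36 (SE 0.04, adjusted p = 5.13e-06, edgeR). The mitophagy receptor Bnip3 had 23.9, 23.5 and 23.5 CPM and 20.6, 20.1 and 18.3 CPM, and fell by 0.26 on the log2 scale (SE 0.05, adjusted p = 0.00105, edgeR). Its paralogue Bnip3l fell by 0.14 (adjusted p = 0.00463, and 0.0576 under upper-quartile scaling) and the histone demethylase Kdm3a by 0.15 (adjusted p = 0.00211, edgeR). Ankrd37 is given above. The promoters with most matches did not share a direction: Ldha, with 7 in its first window, was higher and Bnip3, with 5, was lower.

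Genes of the same pathways outside the members were read from 4 lists. Of 29 other glycolytic isoforms and side enzymes, 18 were tested, 7 were higher and 8 lower, with 1 and 4 of them past 1.5-fold. That is 83.3% called and 27.8% past 1.5-fold, beside 58.7% and 17.7% of all tested genes. Pfkfb2, a PFKFB enzyme typical of heart, had 36.7, 37.1 and 40.3 CPM with the WT label and 13.7, 15.5 and 16.9 CPM with the KO label, and fell by 1.31 on the log2 scale (SE 0.07, adjusted p = 5.42e-09, edgeR). Eno3, the muscle enolase, fell from 160 ± 5.62 to 86.5 ± 3.03 CPM (log2 fold change -0.89, adjusted p = 6.63e-10, edgeR), so that Eno1, Eno2 and Eno3 were all lower. Bpgm, which makes the bisphosphoglycerate of red cells, fell by 0.90 (adjusted p = 1.13e-08) and the ADP-dependent glucokinase Adpgk rose by 0.37 (adjusted p = 3.67e-06, edgeR). The median log2 fold change of the 18 was -0.17. The other genes past 1.5-fold, named after their values were seen, were the lactate dehydrogenase for the D form, Ldhd, with 14, 14 and 9 reads against 79, 90 and 62, and the hexokinase relative Hkdc1, with a log2 change of -0.70. Ldhd shares 2246 exonic bases with Znrf1 on the opposite strand, which holds many more reads. Ldhd, the only gene of this list higher past 1.5-fold, passed the filter on low counts only through the libraries labelled KO.

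Of the 12 genes for the entry of pyruvate into mitochondria, 4 were higher and 4 lower, none by 1.5-fold, with a median log2 change of -0.05. The share called was 66.7%, beside 58.7% of all tested genes. The pyruvate dehydrogenase subunits Pdha1 and Pdhb fell by 0.41 and 0.34 on the log2 scale (adjusted p = 6.66e-08 and 1.55e-06, edgeR) and the carrier subunit Mpc2 by 0.31 (adjusted p = 8.01e-04). Pyruvate carboxylase, Pcx, which feeds pyruvate into the citric acid cycle by another route, had 69.5, 64.2 and 62.3 CPM with the WT label and 93.1, 89.4 and 90.2 CPM with the KO label, and rose by 0.48 (SE 0.04, adjusted p = 6.85e-07, edgeR).

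Of 21 other genes of oxygen sensing, 18 were tested, 5 were higher and 8 lower, with a median log2 change of -0.09. The share called was 72.2% and the share past 1.5-fold 16.7%, beside 58.7% and 17.7% of all tested genes. The 3 past 1.5-fold were all higher, where 11.6% of all tested genes were higher and 6.1% lower past that limit. Arnt2, a tissue-restricted relative of Arnt, had 6.64, 6.99 and 6.08 CPM with the WT label and 17, 16.6 and 16.6 CPM with the KO label (log2 fold change 1.35, SE 0.07, adjusted p = 4.28e-09, edgeR). Cited2, which competes with HIF for its coactivators, rose from 110 ± 5.84 to 213 ± 5.63 CPM (log2 fold change 0.95, adjusted p = 5.99e-10, edgeR). Hif3a, a HIF alpha gene some of whose forms restrain HIF, had 0, 0 and 0 reads and 34, 37 and 38, at least 31.9-fold higher against a floor of 3 reads over the group (adjusted p = 2.00e-06, edgeR). Hif3a passed the filter on low counts only through the libraries labelled KO, and was named after its values were seen. Siah2, a ubiquitin ligase for EGLN proteins, rose by 0.31 (adjusted p = 0.0109, and 0.0505 without labelled WT replicate 3) and Cul2, the scaffold of the VHL complex, fell by 0.31 (adjusted p = 3.56e-05, edgeR).

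The last list holds 39 other genes known as HIF targets, of which 34 were tested, 10 were higher and 16 lower, with 2 and 6 past 1.5-fold and a median log2 change of -0.07. In all 76.5% were called and 23.5% passed 1.5-fold, beside 58.7% and 17.7% of all tested genes. Fam13a had 107, 113 and 136 reads with the WT label and 22, 26 and 25 with the KO label, and fell by 2.47 on the log2 scale (SE 0.17, adjusted p = 8.97e-08, edgeR). The circadian repressor Bhlhe41 fell by 1.03, the nuclear receptor Rora by 0.96 and the glycogen-targeting subunit Ppp1r3c by 0.80 (adjusted p = 2.42e-07, 1.86e-08 and 3.69e-05, edgeR). Named after their values were seen, the carbonic anhydrase Car12, a relative of Car9, had 6, 2 and 3 reads against 41, 43 and 25, and the secreted glycoprotein Stc2 had 20, 30 and 24 against 100, 121 and 84. Car12 and Stc2 were the genes of the list that were higher past 1.5-fold. Car12 passed the filter on low counts only through the libraries labelled KO, the group where it is high. The number of higher genes is therefore not independent of that filter. Of better known targets, also picked after the fact, the glucose transporter Slc2a1 rose by 18.9% while Vegfa, the vascular growth factor, differed by 3.44% without passing the test (adjusted p = 0.385, edgeR).

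**Figure D5:**
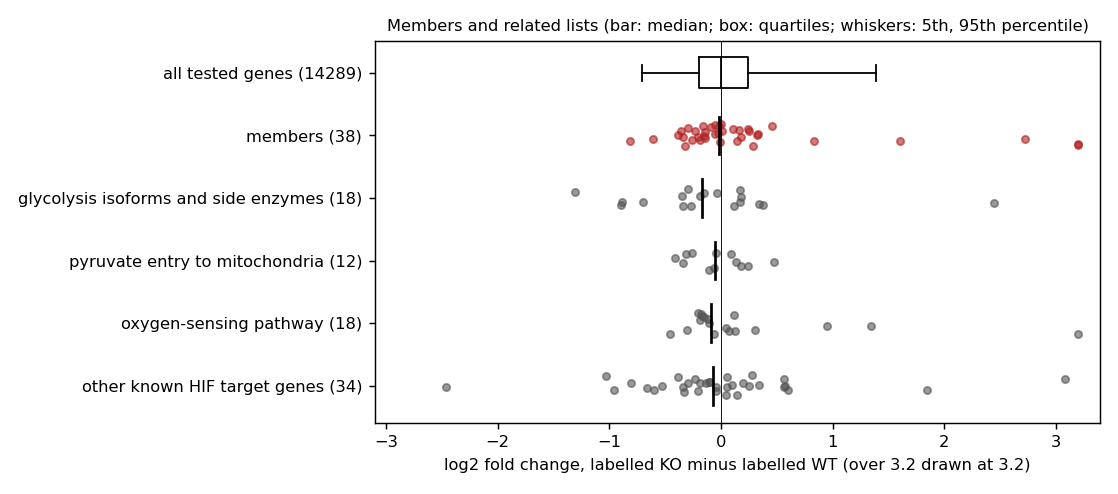
Log2 fold change (horizontal axis, labelled KO minus labelled WT) of all 14289 tested genes as a box, of the 38 member entries as red points and of the tested genes of the 4 other lists as grey points, with the median as a bar. Each list is spread on both sides of 0 with a median between -0.17 and -0.02, and a few points lie far to the right.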

How the data were processed

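The authors deposited raw counts of poly-A RNAseq reads per gene and log2 CPM values. Per the submitters' processing notes, STAR 2.7.2b, featureCounts and limma were used with GRCm38.p6; strand and multi-mapping settings are not given in the sources used here. edgeR 4.0.16 (R 4.3.3) was run on the deposited counts (TMM factors, filterByExpr, quasi-likelihood F test on 6 libraries, Benjamini-Hochberg over 14289 genes). Standard errors were derived from the log2 fold change and its F statistic. Calls used an adjusted p of 0.05 and, where stated, 1.5-fold. RPKM used the union of GENCODE M21 exons, and 14822 identifiers matched that annotation. Near-identical copies share at least 100 bases at 98% identity (BLAST 2.17.0). Alternatives were other scalings and filters, DESeq2 1.42.0, limma 3.58.1, longest-transcript lengths and leaving out each library. No pair of libraries of the same group agreed within sampling noise (chi-square per degree of freedom 2.50 to 7.74), and depth was 31728420 to 41035931 counts. Members that changed at least 1.5-fold were named in full, other members by step, and up to 4 genes per list by size of change, if each library on the higher side had 100 counts or more. The members and lists were chosen with earlier results of these data known.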

Additional observations from a re-analysis of the deposited data

How the results depend on the processing

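The number of members past an adjusted p of 0.05 stayed between 25 and 29 under all alternatives. The number past 1.5-fold as well fell from 7 to 3 when at least 10 counts were asked of every library, since Car9, Epas1, Aldoc and Egln3 were then not tested. It was 6 or 7 under the other scalings, filters and tests, and 5 to 7 when each library was left out. The log2 fold change turned in sign only for members that did not pass the test: under upper-quartile scaling Gpi1 (0.0465), Pfkm (0.0404), Gapdh (0.0347), Pgam1 (0.00598), Pdk3 (0.0563) and Vhl (0.00536), and under total counts Gpi1 (0.0243), Pfkm (0.0181), Gapdh (0.0125) and Pdk3 (0.0342). These scalings moved the median of all genes to 0.06 and 0.04. Pdk3 also turned with at least 10 counts in every library (0.00675) and with limma-voom (7.69e-04). When each library was left out, Gpi1 lay between -0.0334 and 0.00932, Gapdh between -0.0616 and 0.00316, Pdk3 between -0.0439 and 0.0472 and Pfkfb4 between -0.0197 and 0.0337. With longest-transcript lengths the isoform shares of 10 families kept their direction, but the difference between groups (labelled KO minus labelled WT) shrank from -3.2 to -1.96 percentage points for Hk1, from 1.07 to 0.699 for Eno1 and from -0.176 to -0.110 for Aldoa. With a non-member added to the sum, chosen after seeing the data, the enolase step with Eno3 changed by -34.1% and the hexokinase step with Hkdc1 by -7.45%. No paired analysis was possible because the labels give the libraries no shared replicate numbers. Precision is limited most for genes with few reads in at least 1 group, among them Car9, Epas1, Aldoc, Egln3, Hif3a, Car12, Ldhd and Cdh1.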
